A study of Saccharomyces cerevisiae with 8 samples.

Results

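A haploid budding yeast strain without the tRNA methyltransferase gene TRM2 was compared with its wild type, both grown without the translation inhibitor hygromycin B. The comparison took the 2 libraries titled as Trm2 knockout without hygromycin B and the 2 titled as wild type without it, 4 of the 8 libraries of the series. It was made across the 6439 of 7127 features whose FPKM (a fragment count divided by transcript length and by library size) averaged at least 1 over the 8 libraries. The knockout group was a trm2 deletion in BY4741, a haploid MATa laboratory strain of Saccharomyces cerevisiae, grown in YPD (rich glucose medium) with Geneticin at 200 µg/mL. The wild-type group was BY4741 in YPD, for which no Geneticin is named. Both were grown at 30 °C and harvested at an OD600 between 0.6 and 0.8, and the series calls the 2 libraries of a group biological duplicates. The deletion and the Geneticin in its medium cannot be told apart in any difference given here. The p-values come from 1 fit over all 8 libraries of the series and measure the spread between those libraries only.

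Trm2 makes 5-methyluridine at position 54 of tRNAs, in the loop that helps to hold the folded tRNA together. The modification is found on nearly all tRNAs, and yeast cells without the enzyme are viable. Geneticin, like hygromycin B, is an aminoglycoside that acts on the ribosome, and it is the usual agent for selecting cells that carry a kanamycin resistance marker. Rich glucose medium keeps genes for alternative carbon sources, stored carbohydrate and stress protection low while ribosome and glycolysis genes are high. The question of the series is what this methylation means for gene expression, with elongation inhibited or not.

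TRM2 (YKR056W) itself was listed at 0 in both knockout libraries, against 116 and 122 normalised FPKM in the wild-type libraries, so the titles and the targeted gene go together. Normalised FPKM are the deposited values divided by a scale factor for each library. RPS21A, a ribosomal protein gene beside TRM2, had 3046 and 3255 normalised FPKM in the knockout against 2695 and 2428 in wild type, a log2 difference of 0.30 ± 0.08 (SE, limma adjusted p = 0.0284). RPS21A was no longer called without any one of wild-type library 2, knockout library 1 and knockout library 2 (adjusted p = 0.158, 0.0591 and 0.129). Scaling turned its direction, to −0.047 after quantile normalisation. Of the 4 genes by which BY4741 is marked, MET17, LEU2 and URA3 had a listed value of 0 in both genotypes. HIS3, of which the strain's marker is known to delete only an inner stretch, was not at 0, with 38.5 and 44.1 normalised FPKM in the knockout and 38.9 and 41.3 in wild type. STE2, the receptor that a-cells use for α-factor, had 663 and 626 normalised FPKM in the knockout and 708 and 706 in wild type. The genes for a-factor itself, MFA1 and MFA2, were also listed at 0 in all 4 libraries, which leaves them without a value.

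The 4 libraries differed in one respect that crossed the genotypes. The share of the FPKM sum held by the 22 features with ribosomal DNA names was 19.3% and 5.36% in the knockout libraries, against 15.8% and 2.01% in the wild-type libraries. Library 1 of each genotype was thus the one with the larger share. The largest feature outside these names was TAR1 in knockout libraries 1 and 2 (6.85% and 1.66%) and wild-type library 1 (6.06%). In wild-type library 2 it was FBA1 (0.660%). The scale factors were 0.611 and 0.947 for the knockout and 0.726 and 1.21 for wild type. Log2 values of the duplicates correlated at 0.989 in the knockout and 0.984 in wild type across genes, and their median absolute log2 difference was 0.0774 and 0.0705. The number of reads behind each library is unknown, because only FPKM were used here. Build, annotation and the use of strand in counting are not given in the sources used here, so overlapping genes cannot be separated. Names, positions and promoters below are from the RefSeq annotation of assembly R64.

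Many genes differed, most of them by little. Differences are given as log2(normalised FPKM + 1) in the knockout minus wild type, tested with limma in 1 fit over the 8 libraries, and a gene is called changed at an adjusted p under 0.05 over all 6439 genes. The call was made for 2771 genes, 43.0% of those tested, of which 1495 (23.2%) were higher and 1276 (19.8%) lower. Of the higher genes, 1093 were within a log2 difference of 0.5, and so were 713 of the lower ones. At least 2-fold differences were found in 225 genes (3.49%), and they leaned the other way, with 55 higher (0.854%) and 170 lower (2.64%). Counts of called members in the gene lists below are to be read beside these shares of all genes. Without a single library the number of calls fell to between 1683 (without wild-type library 1) and 1792 (without knockout library 2). It was 1785 without knockout library 1 and 1753 without wild-type library 2, while the number of 2-fold changes stayed between 204 and 239.

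The division into higher and lower depends on the scaling. The median of all genes was 0.03 with the scale factors, and 54% of the calls were higher. With the deposited FPKM it was −0.26, 163 genes were called and 14.1% of them were higher. With TPM, in which each library sums to the same total, the median was −0.19, 1032 genes were called and 11.4% were higher. With TPM computed without the ribosomal DNA names, which kept TAR1, 2462 genes were called and 19.1% were higher. Quantile normalisation left the balance near that of the scale factors, with a median of 0.03, 2529 genes called and 52.9% of them higher. A gene or list slightly above 0 can therefore stand below 0 under another scaling. Each list median below with the scale factors stands beside the 0.03 of all genes. Medians under deposited FPKM, TPM and quantile normalisation stand beside −0.26, −0.19 and 0.03, so a negative one can still lie above that of all genes. Every gene list below with a positive median of up to 0.26 had a negative one with FPKM as deposited. Of the 62 higher genes named with values here, 11 also passed with FPKM as deposited, namely FIT2, FIT3, SIT1, AZR1, YLL056C, YLR046C, SNQ2, YHL046W-A, CPP2, snR161 and snR80, and 39 passed with TPM. The calls for SMF3, FRE6, ISU2, CTR1, URA4, URA7, DCD1, HXT1, ADE16, SHM1, HSC82, EFB1, RPL1B, RPS6B, RPS9B, RPS21A, RIB2, PUS9, HEL2, DCP2, ERG3, ERG5 and ERG25 ended with TPM as well. Of the 80 lower genes named, 51 passed with FPKM as deposited and all 80 with TPM. The 29 whose calls ended with deposited FPKM include MRPL38, RSM18, ENO1, HXT2, TPS1, PDR5, PDR15, ICT1, ATG8, RPN4 and MET6. With quantile normalisation the calls for EFB1 (adjusted p = 0.0999), RPL1B (adjusted p = 0.169), RPS6B and RPS9B (adjusted p = 0.103 for both) and RPS21A (adjusted p = 0.530) ended.

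Further alternatives were chosen after seeing the data. One took the log2 ribosomal DNA share of each library as a covariate in the fit, and called 2451 genes, 231 of them by at least 2-fold. All 62 higher and 80 lower genes named with values here kept their call in it. Another left out library 1 of both genotypes, which leaves 1 untreated library in each, assumed to vary like the others. It called 528 genes, 170 of them by at least 2-fold. Of the genes named with values here 27 lost their call, all in the same direction as before. The 14 higher ones were ADE16, DCD1, DCP2, EFB1, HEL2, HSC82, HXT1, ISU2, RPL1B, RPS6B, RPS9B, RPS21A, SHM1 and snR80. The 13 lower ones were ATG8, CYC7, DDR2, EDC2, HEF3, ICT1, LSO1, NTH1, PDR5, PDR15, URA10, YER067C-A and ZRT1.

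**Figure D1:**
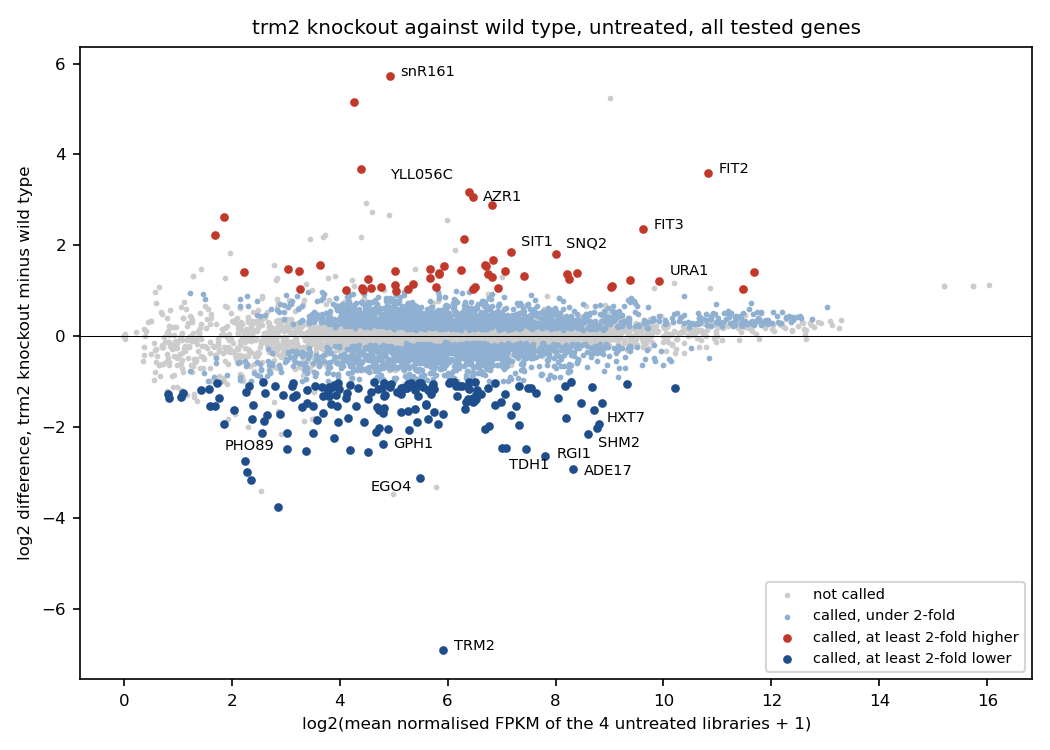
Log2 difference (trm2 knockout minus wild type, untreated) against log2 of the mean normalised FPKM of the 4 untreated libraries plus 1, with 1 point for each of 6439 genes. The 55 genes at least 2-fold higher include FIT2 at 3.60 and AZR1 at 3.07, and the 170 at least 2-fold lower include ADE17 at −2.91. The positions of TRM2 and snR161, which were listed at 0 in one genotype, depend on the added 1.

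Genes for taking up iron bound to siderophores had the highest median among the gene lists described here. Siderophores are iron chelators that microbes release, and yeast, which makes none, captures them with cell wall mannoproteins and imports them with dedicated transporters. Genes of both kinds are known as targets of the iron-sensing factors Aft1 and Aft2. All 7 tested genes of this group were called higher and all 7 by at least 2-fold, beside 23.2% and 0.854% of all genes, with a median of 1.57 beside 0.03. FIT2, a mannoprotein that holds siderophore iron in the wall, had 2718 and 3979 normalised FPKM in the knockout libraries, against 255 and 286 in the wild-type libraries. Its lowest knockout value was far above its highest wild-type value, and the difference was 12.1-fold (log2 3.60 ± 0.23 SE, adjusted p = 0.000201). FIT2 lies near the right end of chromosome XV next to FIT3, which had 966 and 1672 in the knockout and 219 and 281 in wild type. FIT1, the third mannoprotein of the family, was much less abundant, with 12.6 and 22.8 in the knockout and 4.82 and 5.27 in wild type. The knockout duplicates of all 3 FIT genes stood further apart than those of most genes, library 2 being the higher, yet no FIT gene's groups overlapped, which was so for 75.6% of all genes and is therefore given for other genes only as a description.

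The 4 siderophore transporters had closer duplicates. SIT1, the ferrioxamine B transporter, had 214 and 234 normalised FPKM in the knockout and 59.1 and 64.0 in wild type (log2 1.85 ± 0.07 SE, adjusted p = 4.01e-05). ARN2, which carries triacetylfusarinine C, had 182 and 205 in the knockout, against 66.0 and 74.9 in wild type. The enterobactin transporter ENB1 had 149.5 and 169 in the knockout and 66.2 and 62.2 in wild type, and the ferrichrome transporter ARN1 had 69.0 and 74.6 in the knockout and 28.9 and 29.0 in wild type. The groups of all 4 were apart by more than the spread of the duplicates, with log2 differences from 1.28 for ARN1 to 1.85 for SIT1. The promoter of FIT2 is shown because it holds the core TGCACCC, to which Aft1 is known to bind. It covers chrXV:1059281-1059580 of R64 on the plus strand, 250 bases before to 50 after the start of the gene, and capitals mark the core or its reverse complement.
FIT2 promoter: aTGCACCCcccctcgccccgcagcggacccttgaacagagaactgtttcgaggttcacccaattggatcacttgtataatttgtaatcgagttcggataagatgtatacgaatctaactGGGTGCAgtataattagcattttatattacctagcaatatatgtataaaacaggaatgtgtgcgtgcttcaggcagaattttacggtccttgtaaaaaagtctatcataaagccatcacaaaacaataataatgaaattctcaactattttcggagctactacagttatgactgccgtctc
The core was searched on both strands and was found 2 times in this window of FIT2. Among the 7 siderophore genes, 5 promoters held it (71.4%), and within 500 bases before the start all 7 did (100%). Of the 5813 promoters of tested genes 1.27% held it in the shorter window and 2.32% in the longer one. A match is a run of letters, not a measured binding site.

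Genes of reductive iron uptake, in which iron is reduced at the surface and then carried in with copper-dependent oxidation, were higher by less. Of 15 tested genes 11 were called higher and 0 lower, 2 of them at least 2-fold, and the median was 0.62. FET3, the multicopper oxidase of high-affinity uptake, had 477 and 503 normalised FPKM in the knockout libraries, against 188 and 182 in the wild-type libraries (log2 1.40 ± 0.07 SE, adjusted p = 9.26e-05). FRE1, the main surface reductase for iron and copper, had 432 and 424 in the knockout and 157 and 173 in wild type. SMF3, which exports iron from the vacuole, had 127 and 126 in the knockout and 74.8 and 73.3 in wild type. The reductase FRE6 of the vacuole was close behind at a log2 difference of 0.49. The core TGCACCC was in 7 of the 15 promoters (46.7%), and in 12 (80%) within 500 bases.

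The genes that economise on iron or build iron-sulfur clusters were mixed, with 6 of 14 higher, 5 lower and median 0.18 (−0.11 under deposited FPKM, −0.04 under TPM). TIS11, which speeds the decay of mRNAs for iron-using proteins, had 83.1 and 97.1 normalised FPKM in the knockout, against 28.2 and 32.3 in wild type (log2 1.54 ± 0.11 SE, adjusted p = 0.00025). Its relative CTH1 went the other way, at 76.7 and 75.5 in the knockout and 96.5 and 104 in wild type (log2 −0.39). The heme oxygenase gene HMX1 and the scaffold gene ISU2 had log2 differences of 0.97 and 0.51. LSO1, a small gene known to be induced by low iron, was lower in the knockout, at 2.67 and 5.89 against 18.1 and 28.5 in wild type. These are low values with wide duplicates, and its log2 difference of −2.24 had an SE of 0.42 (adjusted p = 0.00746). Of 10 copper genes 4 were higher and 4 lower. CTR1, the high-affinity copper importer, had 833 and 837 in the knockout and 447 and 541 in wild type (log2 0.76), while CTR3, the other importer at the surface, had 22.2 and 21.4 in the knockout and 32.1 and 38.9 in wild type (log2 −0.68). Of 11 zinc genes 3 were lower and 1 higher (36.4% called, beside 43.0% of all genes). The lower ones were the membrane proteins IZH1 (log2 −0.96) and IZH2 (log2 −0.70) and the importer ZRT1 (log2 −0.51).

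Genes for the export of drugs moved in both directions. Yeast carries large families of pumps, ABC transporters that use ATP and MFS transporters that use the proton gradient, whose genes are controlled by zinc cluster factors such as Pdr1, Pdr3 and Yrr1. Of 37 tested genes 13 were higher and 9 lower (59.5% called, beside 43.0% of all genes), around a median of 0.02. By at least 2-fold, 8 were higher and 1 was lower. AZR1, an MFS transporter for azoles and acetic acid, had 163 and 151 normalised FPKM in the knockout libraries, against 17.7 and 17.9 in the wild-type libraries. The difference was 8.39-fold (log2 3.07 ± 0.06 SE, adjusted p = 3.64e-06). YLL056C and YLR046C, whose products are not well characterised, were alike. YLL056C had 143 and 160.3 in the knockout and 15.98 and 15.6 in wild type, and YLR046C had 197 and 199.5 in the knockout and 25.8 and 25.6 in wild type. SNQ2, an ABC transporter for mutagens and many other drugs, had 405 and 391 in the knockout and 109 and 117 in wild type, a log2 difference of 1.81 ± 0.06 (adjusted p = 3.12e-05). In each of these 4 genes the duplicates of a genotype were close and the genotypes far apart.

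The following members of the drug list, other than CIS1, were chosen after their values were seen. YRR1, the zinc cluster factor, had 47.5 and 45.9 normalised FPKM in the knockout and 16.6 and 16.96 in wild type (log2 1.43 ± 0.05 SE, adjusted p = 3.74e-05). The MFS transporter gene FLR1 had 73.6 and 75.1 in the knockout and 25.1 and 27.3 in wild type, the vacuolar ABC transporter gene VMR1 had 31.5 and 30.9 in the knockout against 14.0 and 14.9 in wild type, and CIS1 had 147 and 163 in the knockout against 53.9 and 50.8 in wild type. Other members were lower. PDR5, a broad ABC exporter, had 119 and 130.2 in the knockout and 202 and 226 in wild type (log2 −0.77 ± 0.11 SE, adjusted p = 0.00257). Its relative PDR15 had 14.1 and 14.6 in the knockout and 24.0 and 24.2 in wild type, and ICT1, an acyltransferase of phospholipid synthesis, had 51.6 and 59.3 in the knockout and 102 and 108 in wild type. TPO2, a polyamine exporter, was at 33.4 and 30.9 in the knockout and 70.8 and 75.5 in wild type. Yrr1 is named in the deposited descriptions of 10 tested genes, a group formed after the data were seen. Of these 6 were higher and 3 lower, beside 23.2% and 19.8% of all genes, with a median of 0.54. The drug response element, searched as TCCGCGGA or TCCGTGGA on both strands, was in 4 of the 37 promoters (10.8%) and in 13 (35.1%) within 500 bases, beside 0.619% and 1.69% of all promoters. Of the 47 promoters of genes at least 2-fold higher, 0 held it in the shorter window and 3 (6.38%) in the longer one.

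Purine synthesis and the supply of one-carbon units held several of the largest falls. De novo purine synthesis builds the ring on ribose in a chain of steps named for the ADE genes, and 2 of its carbons come from folate carriers that are charged from serine and glycine. Of 26 purine genes 12 were lower and 10 higher, 7 of the lower ones by at least 2-fold, with a median of −0.19. ADE17, which catalyses the last 2 steps to inosine monophosphate, had 74.9 and 73.9 normalised FPKM in the knockout libraries, against 587 and 545 in the wild-type libraries. It fell by 2.91 on the log2 scale (SE 0.07, adjusted p = 6.34e-06). Its paralogue ADE16, for the same reactions, did not follow, with 277 and 297 in the knockout and 236 and 238 in wild type (log2 0.28, or −0.022 with FPKM as deposited). ADE17 was thus the more abundant of the pair in wild type and ADE16 in the knockout. ADE13, the adenylosuccinate lyase, had 243 and 247 in the knockout, against 708 and 661 in wild type (log2 −1.48). ADE1 and ADE2, chosen after their values were seen, encode earlier steps and had log2 differences of −1.47 and −1.73.

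Among 16 genes of one-carbon metabolism and glycine cleavage 5 were lower, all 5 by at least 2-fold, and 3 were higher, with a median of −0.07. SHM2, the cytosolic serine hydroxymethyltransferase, had 132 and 151 normalised FPKM in the knockout libraries, against 634 and 631 in the wild-type libraries (log2 −2.16 ± 0.09 SE, adjusted p = 7.02e-05). GCV1, a subunit of the glycine decarboxylase, had 37.2 and 39.4 in the knockout and 217 and 215 in wild type, and GCV2 of the same complex had 11.9 and 12.2 in the knockout and 39.1 and 39.0 in wild type. MTD1, a methylenetetrahydrofolate dehydrogenase, had 64.5 and 64.8 in the knockout and 257 and 247 in wild type. These 4 genes lay far below wild type, and of their duplicates only those of SHM2 in the knockout were visibly apart. SHM1, the mitochondrial form of SHM2, was chosen after its value was seen and had a log2 difference of 0.33. The promoter of ADE17 is shown because it holds TGACTC, the core bound by Bas1 in genes of this pathway and by the amino acid regulator Gcn4. It covers chrXIII:509231-509530 of R64, and its letters run along the minus strand, on which the gene lies.
ADE17 promoter: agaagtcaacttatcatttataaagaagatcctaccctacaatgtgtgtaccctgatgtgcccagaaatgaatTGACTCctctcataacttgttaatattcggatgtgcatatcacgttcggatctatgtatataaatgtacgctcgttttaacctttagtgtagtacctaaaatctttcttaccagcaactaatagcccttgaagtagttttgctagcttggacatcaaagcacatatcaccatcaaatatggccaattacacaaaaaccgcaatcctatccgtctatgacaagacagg
The core, searched on both strands, was there 1 time in this window. It was in 11 of 26 purine promoters (42.3%) and 9 of 16 one-carbon promoters (56.2%), beside 8.07% of all promoters. Of the 148 promoters of genes at least 2-fold lower, 26 (17.6%) held it, and of the 47 of genes at least 2-fold higher 2 did (4.26%).

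Genes of pyrimidine synthesis, the other branch of nucleotide supply, were higher. Of 12 tested genes 10 were called higher and 1 lower, with a median of 0.47. URA1, the dihydroorotate dehydrogenase, had 1314 and 1393 normalised FPKM in the knockout libraries, against 604 and 564 in the wild-type libraries (log2 1.21 ± 0.07 SE, adjusted p = 0.000151). URA4, the dihydroorotase one step before it, had 352 and 358 in the knockout and 209 and 205 in wild type (log2 0.78). DCD1, the deoxycytidylate deaminase, and URA7, a CTP synthase, had log2 differences of 0.46 and 0.49. The lower member, URA10, is the minor orotate phosphoribosyltransferase and stood at 13.02 and 14.9 in the knockout and 21.1 and 20.1 in wild type. FUI1, which imports uridine, had 153 and 156 in the knockout and 53.0 and 49.6 in wild type (log2 1.57 ± 0.08 SE, adjusted p = 9.7e-05). URA3 has no value in this strain. BY4741 cells depend on uracil from the medium in both genotypes.

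Amino acid genes were divided. Of 51 genes for branched-chain and other amino acids 18 were lower and 9 higher (median 0.01, or −0.29 with FPKM as deposited). HIS4 of histidine synthesis had 63.6 and 72.0 normalised FPKM in the knockout, against 193 and 177 in wild type, and LEU1, the isopropylmalate isomerase, had 115 and 121 in the knockout and 287 and 274 in wild type. SER3, the first enzyme of serine synthesis, had 47.1 and 48.0 in the knockout and 132 and 128 in wild type. An RNA known as SRG1 overlaps the SER3 gene in R64, and reads of the pair cannot be separated. The groups of these 3 genes were apart, with log2 differences from −1.24 to −1.44. Of 34 genes for methionine, cysteine and sulfate 10 were lower and 3 higher (median −0.15). MUP3, a low-affinity methionine permease, had 6.05 and 5.20 in the knockout and 24.7 and 22.5 in wild type, and MET6, the methionine synthase, had 40.6 and 43.1 in the knockout and 87.7 and 84.6 in wild type. CBF1, a regulator of sulfur genes and a centromere factor, was higher, at 137 and 139.7 in the knockout against 75.2 and 77.6 in wild type (log2 0.85). Of 21 arginine and lysine genes 7 were higher and 4 lower, with ARG4, the argininosuccinate lyase, at a log2 difference of −0.98. Of 31 genes under nitrogen catabolite repression 11 were lower and 2 higher (median −0.22), and the amino acid permease gene AGP1 had 41.5 and 44.1 in the knockout, against 116 and 118 in wild type (log2 −1.44).

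**Figure D2:**
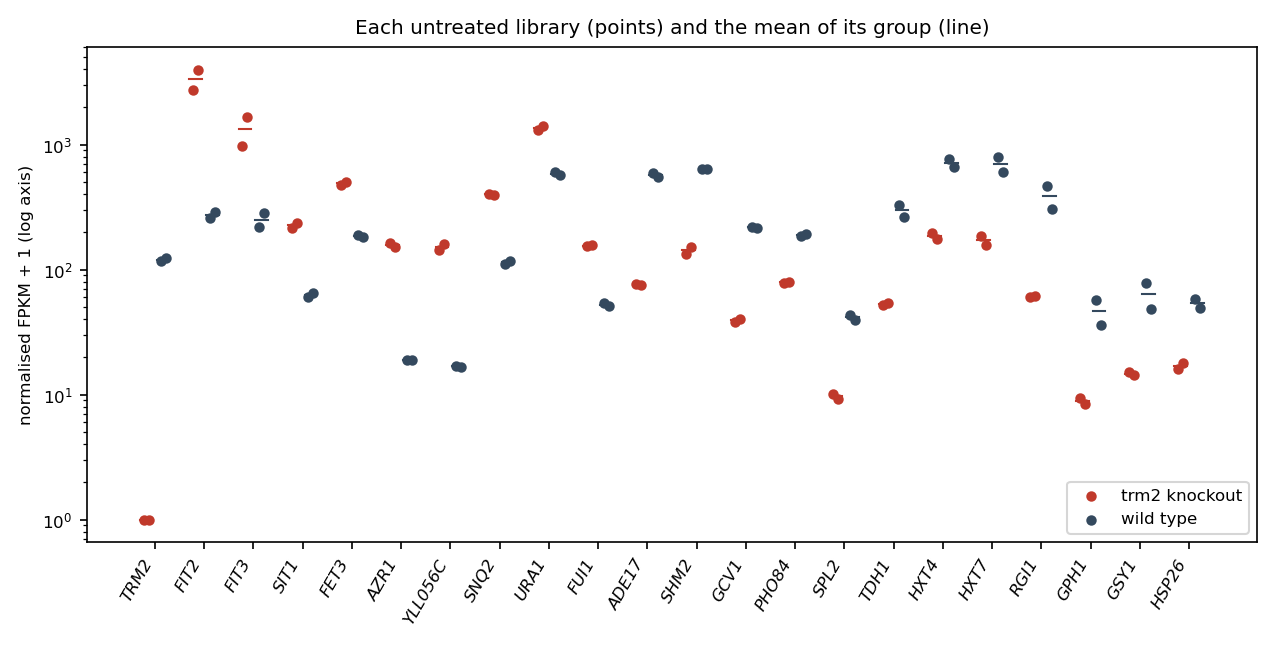
Normalised FPKM plus 1 (log axis) in each untreated library, with trm2 knockout left of wild type for 22 genes, points for libraries and lines for group means. The groups do not overlap for any gene shown, and the FIT2 duplicates of the knockout stand at 2718 and 3979.

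Genes of the phosphate pathway were lower. In this pathway the factor Pho4 turns on phosphatases and transporters when phosphate is scarce, and rich medium keeps it low. Of 20 tested genes 12 were called lower and 0 higher, 8 by at least 2-fold, with a median of −0.48. PHO84, the high-affinity transporter, had 77.4 and 78.3 normalised FPKM in the knockout libraries, against 185 and 191 in the wild-type libraries (log2 −1.26 ± 0.07 SE, adjusted p = 0.000145). A noncoding RNA gene overlaps PHO84 in R64. SPL2, which restrains low-affinity phosphate uptake, had 9.08 and 8.29 in the knockout and 42.4 and 38.5 in wild type (log2 −2.10 ± 0.08 SE, adjusted p = 3.74e-05). PHO89, a sodium-phosphate cotransporter, was low in both, at 2.16 and 1.93 in the knockout and 11.98 and 12.6 in wild type. PHO12, a secreted acid phosphatase, had 22.0 and 22.6 in the knockout and 85.0 and 91.9 in wild type, but its near-identical copy PHO11 shares its reads. The groups of these 4 genes were apart. The promoter of SPL2 is shown because it holds CACGTG, the core of Pho4 sites, several times. It covers chrVIII:375051-375350 of R64, and its letters run along the minus strand, on which the gene lies.
SPL2 promoter: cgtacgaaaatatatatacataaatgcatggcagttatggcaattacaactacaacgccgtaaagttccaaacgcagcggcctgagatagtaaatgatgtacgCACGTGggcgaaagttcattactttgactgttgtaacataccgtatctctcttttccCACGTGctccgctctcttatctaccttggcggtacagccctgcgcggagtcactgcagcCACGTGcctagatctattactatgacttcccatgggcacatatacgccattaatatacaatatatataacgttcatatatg
The core was there 3 times. It was in 5 of the 20 promoters (25%) and in 15 (75%) within 500 bases, beside 2.96% and 6.30% of all promoters. The core reads the same on both strands and is shared with other factors, Cbf1 among them.

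Most genes for storing carbohydrate were called lower. Yeast keeps glucose as glycogen and trehalose when growth slows, and the genes for both belong to those that the factors Msn2 and Msn4 raise in stress. Of 12 glycogen genes 9 were lower and 1 higher, 5 by at least 2-fold, with a median of −0.60. GPH1, the glycogen phosphorylase, had 8.32 and 7.39 normalised FPKM in the knockout libraries, against 56.0 and 35.3 in the wild-type libraries (log2 −2.36 ± 0.22 SE, adjusted p = 0.000671). Of the glycogen synthases, GSY1 had 14.0 and 13.4 in the knockout, against 77.5 and 47.2 in wild type, and GSY2 had 51.6 and 48.0 in the knockout, against 156 and 108 in wild type. GLG1, which primes a new glycogen chain, had 17.6 and 17.1 in the knockout and 72.8 and 60.8 in wild type. GLG1 lies next to RPS21A, one gene away from TRM2. In all 4 genes wild-type library 1 was above wild-type library 2, by more than the knockout duplicates differed, and both were above the knockout. Of 7 trehalose genes 4 were lower and 1 higher (median −0.33). TPS2, the trehalose-phosphate phosphatase, had 47.6 and 44.3 in the knockout and 146 and 111 in wild type (log2 −1.45), TPS1, the synthase, had a log2 difference of −0.84, and TSL1, a regulatory subunit, one of −1.13. NTH1, which degrades trehalose, was at −0.33.

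The wider list of stress-induced carbohydrate enzymes also holds other genes, such as TMA10. Of its 32 genes 18 were lower and 1 higher, 6 of the lower by at least 2-fold, with a median of −0.55. RGI1, a gene of energy metabolism named for respiratory growth, had 59.3 and 60.5 normalised FPKM in the knockout libraries, against 464 and 302 in the wild-type libraries. The wild-type duplicates were far apart, and both were far above the knockout (log2 −2.62 ± 0.22 SE, adjusted p = 0.000452). HXK1, the hexokinase that glucose represses, had 79.7 and 74.1 in the knockout and 259 and 197 in wild type. TMA10, a small protein found with ribosomes, had 29.4 and 51.4 in the knockout and 162 and 167 in wild type. The promoter of RGI1 is shown because it holds AGGGG, the core of the stress response element bound by Msn2 and Msn4. It covers chrV:291816-292115 of R64 on the plus strand.
RGI1 promoter: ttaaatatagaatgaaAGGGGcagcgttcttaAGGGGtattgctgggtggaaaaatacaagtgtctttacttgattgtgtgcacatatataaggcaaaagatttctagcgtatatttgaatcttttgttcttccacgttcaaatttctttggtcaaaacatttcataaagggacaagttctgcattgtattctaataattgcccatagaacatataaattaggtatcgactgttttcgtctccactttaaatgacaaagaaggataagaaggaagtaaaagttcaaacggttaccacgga
The core was there 2 times. It was in 19 of the 32 promoters (59.4%), searched on both strands, beside 21.7% of all promoters. Of genes at least 2-fold lower it was in 53 of 148 (35.8%), and of genes at least 2-fold higher in 11 of 47 (23.4%).

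Heat shock and stress proteins were lower in part, with 14 of 35 lower and 5 higher, 6 of the lower by at least 2-fold, and a median of −0.33. Relative to all genes the median was −0.35, and −0.20 without knockout library 1. HSP26, a small heat shock chaperone, had 15.0 and 16.7 normalised FPKM in the knockout, against 57.5 and 47.8 in wild type (log2 −1.67 ± 0.10 SE, adjusted p = 0.000182). HSP42, another chaperone of this kind, had 39.7 and 40.6 in the knockout and 117 and 87.3 in wild type. HOR7, a small stress-induced gene, had 214 and 199 in the knockout and 577 and 695 in wild type, and BTN2, which gathers misfolded proteins, was at a log2 difference of −0.73. The groups of these 4 genes were apart. DDR2, a stress gene, was listed at 0 in both knockout libraries and stood at 5.67 and 10.96 in wild type. It was among the called genes, but its call ended without wild-type library 2, knockout library 1 or knockout library 2 (adjusted p = 0.0653, 0.0564 and 0.0558). DDR2 and HSC82 were chosen after their values were seen. HSC82, the constitutive Hsp90 gene, had a log2 difference of 0.38. Of 34 redox genes 9 were lower and 6 higher (44.1% called, beside 43.0% of all genes), with a median of −0.11.

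In glycolysis the minor isoforms TDH1, ENO1 and ADH5 fell, while the abundant relatives of TDH1 and ENO1 were not called. Glycolysis in yeast runs on a few very abundant enzymes, several of which have a less abundant copy used in other growth states. Of 24 genes 7 were lower and 4 higher, median 0.23 (−0.07 under deposited FPKM, −0.14 under quantile normalisation). Relative to all genes it was 0.20, and 0.12 without knockout library 2. TDH1, the glyceraldehyde-3-phosphate dehydrogenase of slow growth, had 51.4 and 53.1 normalised FPKM in the knockout libraries, against 328 and 263 in the wild-type libraries (log2 −2.47 ± 0.10 SE, adjusted p = 6.91e-05). TDH3 had 10371 and 12239 in the knockout and 9035 and 8527 in wild type (log2 0.36, adjusted p = 0.135), and TDH2 had 2038 and 2365 in the knockout and 1888 and 1783 in wild type (log2 0.26, adjusted p = 0.226). These 2 log2 differences were −0.83 for TDH3 and −0.023 for TDH2 with quantile normalisation, and TDH2 was at −0.040 with FPKM as deposited. ENO1, an enolase, had 399.5 and 436 in the knockout and 889.6 and 832 in wild type (log2 −1.04 ± 0.07 SE, adjusted p = 0.00025). ENO2, the enolase of growth on glucose, had 6824 and 8030.4 in the knockout and 6211 and 5967 in wild type (log2 0.28, or −0.017 with FPKM as deposited, adjusted p = 0.251). ADH5, a minor alcohol dehydrogenase, had 22.9 and 25.4 in the knockout and 71.0 and 70.9 in wild type.

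Hexose transporters of high affinity for glucose were lower. Of 24 genes for transport and sensing 8 were lower and 4 higher, with a median of −0.14 (−0.17 relative to all genes, and −0.088 without knockout library 1). HXT7 and HXT6 are near-identical high-affinity transporters whose reads cannot be divided with certainty. HXT7 was listed at 183 and 156 normalised FPKM in the knockout libraries, against 789.9 and 604 in the wild-type libraries (log2 −2.02 ± 0.15 SE, adjusted p = 0.000304). HXT6 was at 9.57 and 9.28 in the knockout and 48.5 and 34.8 in wild type. HXT4, also of high affinity, had 196 and 173 in the knockout and 762 and 655 in wild type, and HXT2 had 365 and 428 in the knockout and 719.6 and 760.0 in wild type. HXT1, the low-affinity transporter of high glucose, was chosen after its value was seen and was higher, at 561 and 613 in the knockout against 422 and 452 in wild type (log2 0.42 ± 0.07 SE, adjusted p = 0.00478). Among 22 genes of gluconeogenesis, glyoxylate and acetate use 5 were higher and 6 lower (median −0.07, or 0.096 with quantile normalisation). Relative to all genes this median was −0.093, and −0.017 without knockout library 1. MDH2, the cytosolic malate dehydrogenase, had 232 and 255 in the knockout and 102 and 91.5 in wild type (log2 1.32 ± 0.08 SE, adjusted p = 0.00017).

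Most nuclear genes for the mitochondrial ribosome were lower, by small amounts, with log2 differences from −0.82 to 0.31. Of 82 tested genes 52 were lower, 1 was higher and 0 of the lower reached 2-fold, with a median of −0.29. MRPL38 of the large subunit had 92.6 and 94.7 normalised FPKM in the knockout, against 152 and 139.7 in wild type (log2 −0.63 ± 0.05 SE, adjusted p = 0.000457). RSM18 of the small subunit had 190.0 and 198 in the knockout and 299 and 313 in wild type. Both had groups that were apart by several times the spread of the duplicates. Nuclear genes of the respiratory chain and ATP synthase had 7 of 43 lower and 5 higher around a median of 0.02. The 27.9% of them called was below the 43.0% of all genes. COX5B and CYC7, the subunits of cytochrome oxidase and cytochrome c for low oxygen, were among the lower ones, COX5B at 115 and 109 in the knockout and 244 and 198 in wild type, and CYC7 at 16.2 and 14.2 in the knockout and 43.3 and 35.3 in wild type. ROX1, the repressor of hypoxic genes, was higher, with 228 and 260.1 in the knockout and 128 and 129.9 in wild type (log2 0.91 ± 0.07 SE, adjusted p = 0.000317). Of 26 genes of the citric acid cycle 9 were lower and 2 higher, and MPC1, a subunit of the pyruvate carrier, had a log2 difference of −0.83. The 7 tested genes encoded in the mitochondrion were not called, although 6 of them stood above 0, with a median of 1.01. Relative to all genes that median was 0.98, and it ran from 0.0085 without knockout library 1 (0.051 without wild-type library 2) to 2.19 without knockout library 2 (2.18 without wild-type library 1). COX1, a cytochrome oxidase subunit, had 15.4 and 3.63 in the knockout and 3.56 and 0.894 in wild type. In R64, 6 genes overlap COX1, and their reads cannot be separated from its own. COX1 was called higher with TPM (log2 1.25, adjusted p = 0.00654) and without knockout library 2 (log2 2.48, adjusted p = 0.0492). Library 1 was the higher one within each genotype, as with the share of ribosomal DNA names. In the fit with that share as a covariate COX1 was still not called. Beyond that fit, the part of the share in these values was not tested.

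Genes for making protein in the cytosol were slightly higher. Of 135 ribosomal protein genes 88 were higher, 0 were lower and 1 reached 2-fold, median 0.30 (0.01 under quantile normalisation, 0.00 under deposited FPKM, 0.07 under TPM). RPS28B, the gene at 2-fold, had 917 and 948 normalised FPKM in the knockout libraries, against 340.2 and 461 in the wild-type libraries (log2 1.23 ± 0.16 SE, adjusted p = 0.0021). The protein is known to take part in the decay of the RPS28B mRNA. Its more abundant copy RPS28A was not called, at 5965 and 6498 in the knockout and 5526 and 5168 in wild type (log2 0.22, adjusted p = 0.123), and its difference turned to −0.079, −0.0099 and −0.058 with FPKM as deposited, TPM and quantile normalisation. Of the next members by p, RPL1B, RPS6B and RPS9B had log2 differences of 0.47, 0.51 and 0.54. Of 30 initiation factors 11 were higher and 0 lower (median 0.16), of 19 elongation and termination factors 10 were higher and 1 lower (median 0.26), and of 22 cytosolic aminoacyl-tRNA synthetases 14 were higher and 0 lower (median 0.26). These 3 medians were −0.13, −0.04 and −0.04 with FPKM as deposited, beside −0.26 for all genes. The initiation factor median was −0.07 with TPM, beside −0.19 for all genes. With quantile normalisation the 3 medians were 0.08, 0.11 and 0.20, beside 0.03 for all genes. Relative to all genes they were thus smaller than with the scale factors. EFB1, the exchange factor of elongation, had 3782 and 4072 in the knockout and 2329 and 2378 in wild type (log2 0.74), with a noncoding RNA gene overlapping it. HEF3, a copy of elongation factor 3 used little in rich medium, was the lower one, at 6.98 and 6.93 in the knockout and 11.2 and 12.2 in wild type. Of 120 ribosome biogenesis genes 32 were higher and 10 lower, median 0.07 (−0.23 under deposited FPKM, −0.16 under TPM). The 35% of them called was below the 43.0% of all genes.

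The genes that modify tRNA had 27 of 62 members higher and 3 lower, TRM2 itself among the lower, median 0.16 (−0.13 under deposited FPKM, −0.06 under TPM). SLM3, which thiolates uridine in mitochondrial tRNAs, had 31.7 and 33.5 normalised FPKM in the knockout, against 17.5 and 17.6 in wild type (log2 0.85 ± 0.07 SE, adjusted p = 0.000415). RIB2, a deaminase of riboflavin synthesis that also makes a tRNA pseudouridine, had 47.0 and 47.0 in the knockout and 29.0 and 26.6 in wild type, and PUS9, the mitochondrial pseudouridine synthase, had 90.6 and 84.9 in the knockout and 61.0 and 62.3 in wild type. Genes for sensing collided ribosomes and decaying mRNA had 19 of 41 higher and 4 lower, median 0.21 (−0.08 under deposited FPKM, −0.01 under TPM). HEL2, the ligase that marks collided ribosomes, had 89.2 and 85.9 in the knockout and 66.9 and 66.8 in wild type (log2 0.38 ± 0.04 SE, adjusted p = 0.00111). PAN2, a nuclease that trims poly(A) tails, was at a log2 difference of 0.78, DCP2, the decapping enzyme, at 0.48, and EDC2, which stimulates decapping, at −0.72.

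Genes of DNA replication and the entry into S phase were higher, with 19 of 35 called higher and 1 lower and 2 of the higher at 2-fold, and median 0.22 (−0.07 under deposited FPKM). CLB6, an S-phase cyclin, had 14.3 and 11.5 normalised FPKM in the knockout libraries, against 4.23 and 3.98 in the wild-type libraries (log2 1.44 ± 0.13 SE, adjusted p = 0.000496). CDC45, a part of the replicative helicase, had 48.3 and 46.8 in the knockout and 23.6 and 23.9 in wild type, and RFA1 and POL1, the single-strand binding protein and a polymerase subunit, both had log2 differences of 0.82. Of 22 genes for mitosis and cytokinesis 12 were higher and 2 lower (median 0.21, or −0.08 with FPKM as deposited), among them MYO1, the myosin of the division ring, at 67.3 and 59.2 in the knockout and 36.4 and 36.3 in wild type. BUD4, an anchor of the septin ring, was at a log2 difference of 0.82. Histone genes were mostly not called, with 2 of 10 higher and 1 lower.

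Sterol synthesis had 14 of 27 genes higher and 0 lower, median 0.20 (−0.10 under deposited FPKM, −0.03 under TPM). ERG3, a desaturase of the late pathway, had 760.0 and 882 normalised FPKM in the knockout, against 465 and 474 in wild type (log2 0.80 ± 0.09 SE, adjusted p = 0.000966). ERG5 and ERG25, also of the late pathway, had log2 differences of 0.72 and 0.54. PLB1, a phospholipase B of the cell surface, had 175 and 175 in the knockout, against 55.6 and 52.5 in wild type (log2 1.68 ± 0.11 SE, adjusted p = 0.000249). Cell wall genes were mixed, 8 of 45 higher and 11 lower (42.2% called, beside 43.0% of all genes). PRM5, a surface gene induced by pheromone and wall stress, had 26.0 and 28.6 in the knockout and 92.1 and 89.8 in wild type (log2 −1.70 ± 0.06 SE, adjusted p = 4.56e-05). SLT2, the kinase of wall integrity signalling, had 78.1 and 80.8 in the knockout and 130.4 and 124 in wild type, and YPS1, a surface protease known as a target of that pathway, was at a log2 difference of −0.82. DSE4, a glucanase that helps daughters separate, had 104 and 97.0 in the knockout and 51.9 and 51.5 in wild type (log2 0.95).

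Genes of a-cells and of the pheromone response had 10 of 25 members lower and 2 higher, with a median of −0.12. AGA2, an agglutinin subunit of a-cells, had 203 and 167 normalised FPKM in the knockout, against 397 and 386 in wild type (log2 −1.08 ± 0.12 SE, adjusted p = 0.00112). FUS1, needed for cell fusion, had 26.7 and 26.6 in the knockout and 45.9 and 43.9 in wild type, and ASG7 and KAR4 had log2 differences of −1.28 and −0.68. The pheromone receptor STE2 was not called (log2 −0.13, adjusted p = 0.154), but with TPM computed without the ribosomal DNA names it was called lower (log2 −0.31, adjusted p = 0.0334). Of 35 genes for autophagy and the vacuole 17 were lower and 0 higher, 3 by at least 2-fold, with a median of −0.19. ATG8, the ubiquitin-like protein of the autophagosome, had 42.6 and 51.6 in the knockout and 102 and 100.0 in wild type, and PRB1, a vacuolar protease, had 59.7 and 73.0 in the knockout and 147 and 144 in wild type. ATG39, a receptor for autophagy of the nucleus, was at 3.63 and 4.35 in the knockout and 14.3 and 13.2 in wild type. The groups of these 3 genes were apart. The proteasome list had 13 of 38 lower and 2 higher (median −0.12), led by its regulator RPN4, at 104 and 107 in the knockout and 166 and 167 in wild type (log2 −0.65). Of 32 sporulation genes 10 were lower and 3 higher (median −0.17). SPS1, a kinase of spore wall formation, had 4.51 and 3.93 in the knockout and 17.7 and 17.7 in wild type. SPO19, a meiosis gene, had 2.08 and 2.10 in the knockout and 16.7 and 16.8 in wild type.

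**Figure D3:**
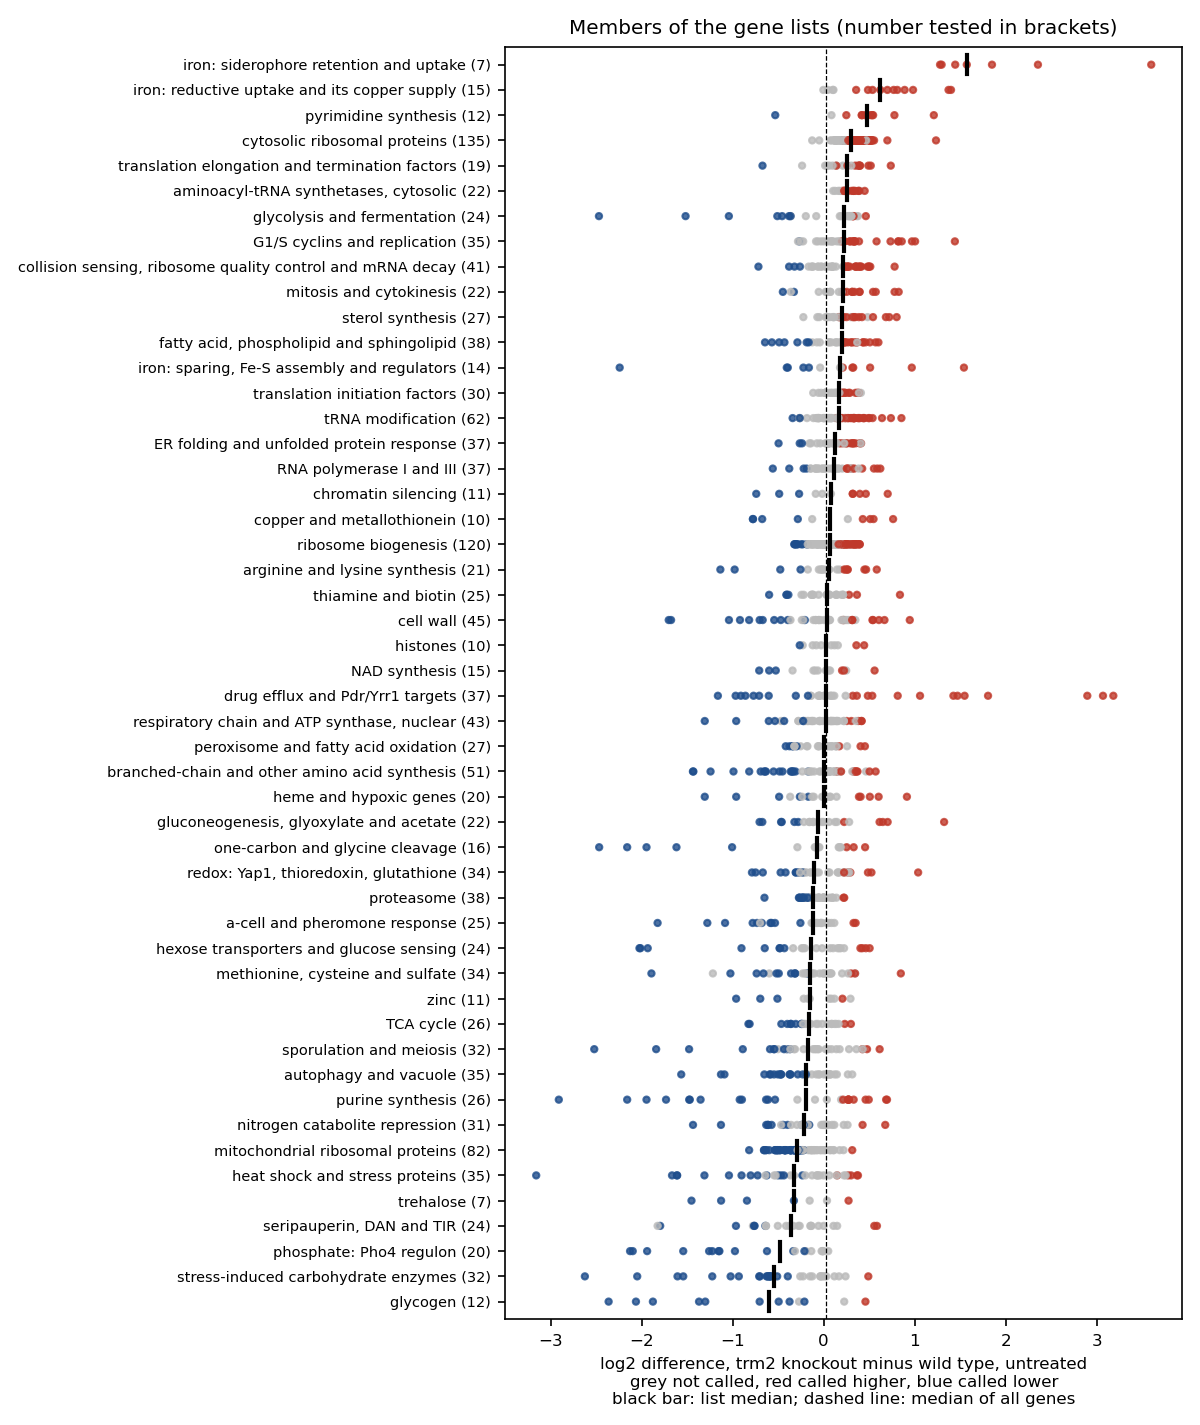
Log2 difference (trm2 knockout minus wild type, untreated) of each tested member of 50 gene lists, with a black bar at each list's median and a dashed line at the median of all genes. Siderophore iron stands at the top with a median of 1.57, and glycogen at the bottom with −0.60; TRM2, a member of the tRNA modification list, is not drawn.

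A few of the largest differences lay outside these lists or had limits of their own. YHL046W-A, for which R64 gave no match, had 127 and 129.7 normalised FPKM in the knockout, against 26.1 and 30.9 in wild type (log2 2.13 ± 0.11 SE, adjusted p = 0.000116). EGO4 had 6.002 and 10.4 in the knockout and 102 and 58.0 in wild type (log2 −3.12 ± 0.33 SE, adjusted p = 0.000953). Its duplicates varied in both genotypes without coming near each other. RTS3, a gene linked to phosphatase 2A, had 35.4 and 45.6 in the knockout and 203 and 254 in wild type, RRT5 had 4.32 and 4.60 in the knockout against 26.9 and 33.0 in wild type, and YBR032W had 5.05 and 6.35 in the knockout against 31.0 and 46.1 in wild type. YER067C-A had 1.91 and 1.09 in the knockout and 14.4 and 11.3 in wild type, and its call ended without wild-type library 1 (adjusted p = 0.0546) or knockout library 2 (adjusted p = 0.0548). Some small RNAs were listed at 0 in one genotype, so no fold is given for them. The small nucleolar RNA snR161 was at 86.5 and 31.3 in the knockout and listed at 0 in both wild-type libraries, and snR80 was at 47.0 and 25.5 in the knockout and listed at 0 in wild type. RNA170 was listed at 0 in both knockout libraries, against 12.7 and 12.4 in wild type. RNA under 200 bases was removed before sequencing, per the labels' protocols. CPP2 was at 36.5 and 36.2 in the knockout and 7.53 and 0 in wild type, overlaps YDR209C in R64, and was not called without either knockout library (adjusted p = 0.0697 and 0.0686).

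Position and length were compared with the differences as a description. The median log2 difference of a chromosome ran from −0.04 (chromosome IX) to 0.08 (chromosome III). Among 359 genes within 30 kb of a chromosome end 62 were higher and 67 lower, with a median of 0.00. The median difference was higher among longer genes. When genes were split by R64 length into 5 bins, 441 of 1166 in the longest bin were higher and 142 lower, with a median of 0.13, and in the shortest bin 151 of 1171 were higher and 221 lower, with a median of −0.04. Of 70 reading frames of Ty retrotransposons 29 were higher and 1 lower (median 0.16). Copies of these elements share reads, so their values are uncertain.

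The same genotypes were also sequenced with hygromycin B at 50 µg/mL, harvested at an OD600 of 0.4. The naming rule did not use the genotype difference in those 4 libraries. Members, gene lists and the rule itself were, however, chosen with earlier results of these data known. The 4 treated libraries did enter the filter on low values, the scale factors and the error of the fit behind every call. Of the 55 genes at least 2-fold higher without the drug, 34 were also called higher with it, 7 were called lower and 14 were not called, and their median with the drug was 0.89. Of the 170 at least 2-fold lower, 121 were called lower, 10 higher and 39 not, with a median of −1.13. Of all 6439 genes 77.2% were called between the genotypes with the drug, 2399 higher in the knockout and 2571 lower. The genotype difference itself changed with the drug in 40 of the 55 and in 117 of the 170, beside 64.5% of all genes tested for the interaction. Both sets were chosen by their untreated difference, which enters the interaction, so the choice favours such a change. FIT2 had a log2 difference of 3.04 with the drug beside 3.60 without it (interaction adjusted p = 0.169). AZR1 stood at 4.59 with the drug and 3.07 without, and FLR1 at 1.38 and 1.47. ADE17 was at −0.80 with the drug and −2.91 without, and SHM2 at −0.22 and −2.16. TDH1 was higher in the knockout with the drug, at 1.25, and lower without it, at −2.47. The medians with the drug were 1.45 for siderophore iron, −0.12 for reductive iron uptake, −0.12 for phosphate and −0.43 for glycogen, beside −0.03 for all genes.

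**Figure D4:**
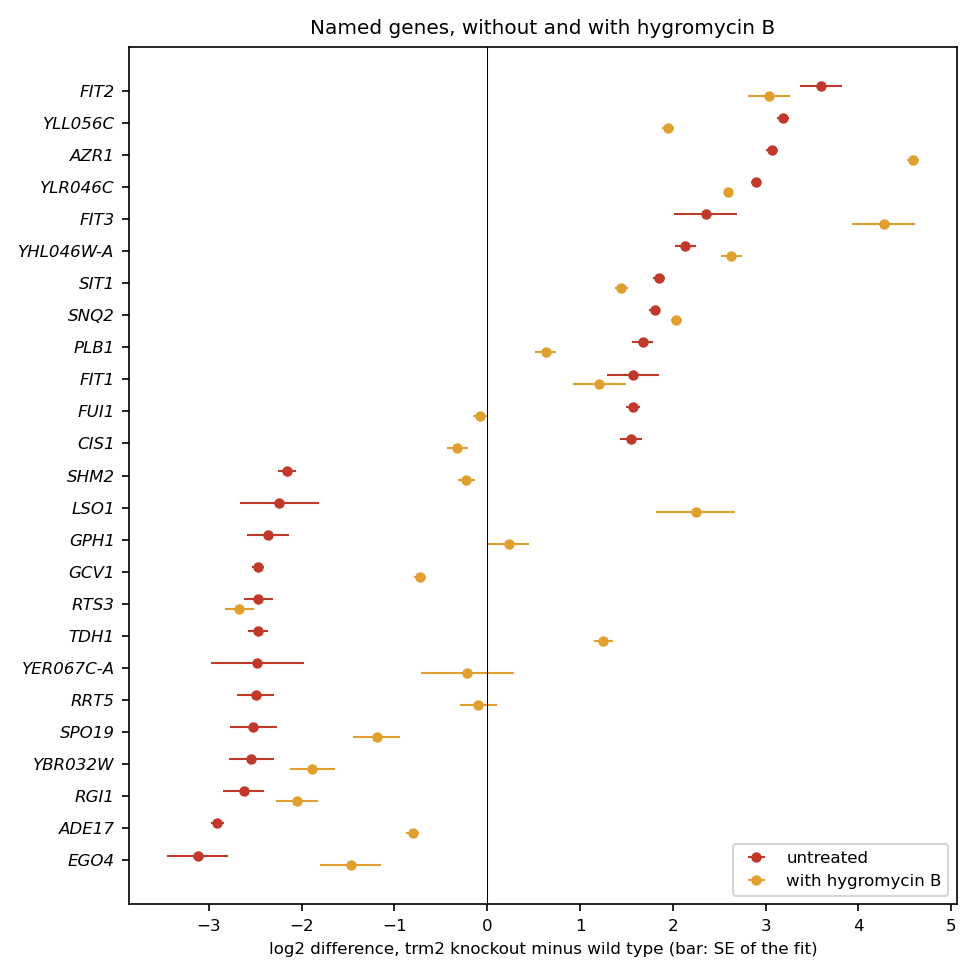
Log2 difference between trm2 knockout and wild type with its SE, untreated (upper point of each pair) and with hygromycin B (lower point), for the named genes of largest difference that had no listed 0. FIT2 stands at 3.04 with the drug and 3.60 without it, and TDH1 at 1.25 with the drug and −2.47 without it.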

How the data were processed

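Poly(A) RNA of yeast was sequenced, and the authors deposited 1 table of FPKM values made from their reads, 7127 features by 8 libraries. Per the labels' protocols, RNA under 200 bases was removed, poly(A) RNA was selected with oligo-dT and rRNA was depleted with probes. RSEM 1.3.3, STAR 2.7.8a, cutadapt 2.3 and FastQC 0.11.8 are named per the submitters' processing notes. Groups came from the sample titles. By identifier, 6047 features matched RefSeq R64.

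FPKM were divided by a median-of-ratios factor per library, computed over 6317 genes above 0 in all libraries. The 6439 genes averaging at least 1 FPKM were analysed as log2(value + 1) by limma 3.58.1 (R 4.3.3), with 1 mean per group over the 8 libraries, eBayes with trend, and 4 residual and 6.39 total degrees of freedom. Tests were two-sided with Benjamini-Hochberg adjustment over all genes. Folds are on the log2(value + 1) scale, which understates changes of low genes, and ± in group means is SD. The table holds no measure of RNA per cell, so differences are relative to the rest of a library. Depth is unknown, because whole reads could not be recovered from low values, so no counting interval is given.

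Members, gene lists and the naming rule were chosen with earlier results of these data known. The rule took TRM2 and its neighbours, the 15 highest and 15 lowest called genes without overlap that averaged at least 10 normalised FPKM where they were higher, and the 4 members of each list with the smallest p. Short lists and paralogue sets could be given in full. Some genes that the rule takes are not reported here. Exact zeros can be failed estimates and are given as listed at 0. Promoters run from 250 bases before to 50 after the gene start in R64, and motifs were searched on both strands. The 7 motifs searched included TTACTAA and CCAAT, whose matches, in the drug genes and elsewhere, are not reported here.

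Replicate numbers were not taken as pairs, since the labels tie no number to a shared culture or day. Alternatives were other scalings, filters, pseudocounts, designs and leaving out each untreated library.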

Additional observations from a re-analysis of the deposited data

Results flagged for a closer look

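The difference between genotypes was itself tested for a change with hygromycin B, by the interaction term of the limma fit over the 8 libraries, and 64.5% of all genes passed it at an adjusted p under 0.05. Values here are the genotype difference (log2, knockout minus wild type) with the drug minus that without it, so a positive value means a higher one with the drug. The untreated difference is part of this value, and the genes below were named for large untreated differences. The choice itself thus favours values of the opposite sign, and how much of a move comes from it was not tested. Harvest density differed between treated and untreated cultures, and its part in these values cannot be told apart from the drug's.

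Among genes higher in the untreated knockout, the difference was smaller with the drug for the drug-response genes YLL056C (−1.24), YLR046C (−0.30), for the phospholipase gene PLB1 (−1.04) and for the siderophore transporter SIT1 (−0.40). It was larger for the transporter genes AZR1 (1.52) and SNQ2 (0.23), for the mannoprotein gene FIT3 (1.92) and for YHL046W-A (0.50). For the drug-response gene CIS1 (−1.87) the direction turned, to a difference of −0.32 with the drug (adjusted p = 0.0391), and the uridine importer gene FUI1 (−1.65) stood at −0.078 with it (adjusted p = 0.393). The small nucleolar RNA snR161 had a value of −5.82, which rests on zeros listed in untreated wild type.

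Among genes lower in the untreated knockout, the difference moved up with the drug for the purine and one-carbon genes ADE17 (2.11), SHM2 (1.94) and GCV1 (1.75), for the glycogen phosphorylase gene GPH1 (2.59), for TDH1 (3.72) and for LSO1 (4.49). It also moved up for EGO4 (1.65), SPO19 (1.33), RRT5 (2.40) and YER067C-A (2.26). TDH1 and LSO1 were higher in the knockout than in wild type with the drug, at 1.25 and 2.25, and GPH1 stood at 0.23 with it (adjusted p = 0.373). TRM2 had a value of −0.38, with both knockout groups listed at 0.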

How the results depend on the processing

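The count of called genes, 2771 with the scale factors, was 163 with the deposited FPKM, 1032 with TPM, and between 1683 and 1792 without any single untreated library. It was 528 without library 1 of both genotypes, the 2 untreated libraries with the larger ribosomal DNA share, an alternative chosen after seeing the data that ended the calls of 27 named genes (14 higher and 13 lower). In a fit of the 4 untreated libraries alone, the calls of RPS21A and CPP2 ended (adjusted p = 0.0671 and 0.0758). Under the other settings the number stayed between 2451 and 2782, and at least 2-fold changes numbered 151 to 313 under every setting run. With the replicate block 2714 genes were called, 227 of them by 2-fold, and the block changed no call of a named gene. The ribosomal DNA share as a covariate, also chosen after seeing the data, gave 2451 calls, 231 of them by 2-fold. That covariate too changed no call of a named gene. Deviations of same-numbered libraries correlated at 0.256 between the untreated knockout and wild type, and from −0.232 to 0.0903 between the other pairs of groups. With 2 libraries a group and no pairing in the labels, the numbers were not taken as pairs. Under every setting the 7 siderophore genes and ADE17 kept their direction.

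Log2 differences that changed sign were those of ENO2 (−0.017), TDH2 (−0.040), RPS28A (−0.079) and ADE16 (−0.022) with FPKM as deposited, RPS28A (−0.0099) with TPM, and RPS21A (−0.047), TDH2 (−0.023), TDH3 (−0.83) and RPS28A (−0.058) with quantile normalisation. All lay between 0.22 and 0.36 with the scale factors. The median of all genes moved from 0.03 to −0.26 with FPKM as deposited and to −0.19 with TPM. With quantile normalisation it stayed at 0.03. The cause of the sign changes, that of TDH3 among them, was not tested. Depth is unknown, so low genes such as LSO1 and PHO89 have errors from the duplicates only.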
